A study of Mus musculus with 23 samples.

Results

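Kupffer cells are the macrophages that live in the liver sinusoids, and 10 genes that mark them or macrophages at large were followed here in mouse liver. The genes were taken from a fixed list of marker names. All probe sets that the platform annotation gives to one of them alone were used, and where a gene had several, the brightest on average over the 23 arrays stands for it. This gave 15 probe sets for the 10 genes, out of 45037 probe sets and 18193 genes. Vsig4, Clec4f, Cd5l, Marco and Cd163 were treated as resident Kupffer markers, and Adgre1, Cd68, Csf1r, C1qa and C1qb as general macrophage markers.

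The study measured liver RNA of male mice of the hemizygous FVB/N-SULT1A1/2 line on Affymetrix Mouse Genome 430 2.0 arrays, with 1 array per animal. The line carries human sulfotransferase genes, whose products can turn 1-MIM-OH, a breakdown product of an indole glucosinolate of cabbage-family plants, into a reactive compound. Treated mice were given 1-MIM-OH orally 3 times per week, at 26 mg per kg each time. Control mice were given the vehicle alone, glyceryl trioctanoate, over the same period, and every group carried the transgene. The 4 groups were 6 vehicle and 5 treated mice after 10 treatments over 21 d, and 6 vehicle and 6 treated mice after 40 treatments over 90 d, with livers taken 24 h after the last treatment. The labels give an age of 5 weeks for all groups, without saying whether this is the age at the start. The array of 1 further treated mouse at 21 d was left out by the submitters because of artefacts in its hybridisation and was not analysed here. All values are log2 signals of whole liver, so that fewer macrophages and less of a transcript per macrophage cannot be told apart.

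Kupffer cells sit on the inner wall of the sinusoids, where they clear bacteria, spent red cells and complement-coated particles from portal blood. They depend on signals through the receptor Csf1r and on the transcription factor PU.1, which is shared with other macrophages, and they take on a liver-specific gene programme that includes Vsig4, Clec4f and Cd5l. Monocytes that enter the liver carry general macrophage genes at first and gain the resident programme with time. In mice, Clec4f is the marker used most often to tell Kupffer cells from other liver macrophages.

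The promoters of 3 resident markers are shown, each as the 250 bases before the gene's start in the RefSeq table for GRCm38.p6. RefSeq entries were found for 7 of the 10 genes; the Adgre1, Csf1r and C1qa promoters were not used here. The capitals mark matches to 3 motifs searched on both strands: GAGGAA, the core bound by PU.1 (PU box); TGAGTCA, the AP-1 site; and TGCTGA, part of the element bound by MAF factors (MAF site).
Vsig4, chrX:96293439-96293688, minus strand: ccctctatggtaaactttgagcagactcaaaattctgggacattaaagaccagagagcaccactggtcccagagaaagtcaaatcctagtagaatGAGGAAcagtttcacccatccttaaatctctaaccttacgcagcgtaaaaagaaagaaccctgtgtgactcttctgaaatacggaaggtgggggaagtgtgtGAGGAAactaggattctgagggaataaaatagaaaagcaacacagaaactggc
Clec4f, chr6:83656117-83656366, minus strand: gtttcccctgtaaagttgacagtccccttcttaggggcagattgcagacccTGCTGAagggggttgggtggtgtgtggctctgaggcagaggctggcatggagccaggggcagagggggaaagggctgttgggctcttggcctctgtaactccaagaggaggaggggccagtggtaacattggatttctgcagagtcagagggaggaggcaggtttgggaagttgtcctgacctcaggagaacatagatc
Marco, chr1:120505025-120505274, minus strand: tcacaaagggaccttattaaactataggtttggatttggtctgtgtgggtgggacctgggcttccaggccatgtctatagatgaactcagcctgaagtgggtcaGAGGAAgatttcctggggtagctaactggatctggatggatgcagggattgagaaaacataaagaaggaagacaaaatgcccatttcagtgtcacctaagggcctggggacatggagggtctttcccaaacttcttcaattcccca
The Vsig4 window held 2 PU boxes, the Marco window 1, and the Clec4f window 1 MAF site. Over the 7 marker promoters, the PU box was found in 5 (Marco, Cd5l, C1qb, Cd68 and Vsig4), the MAF site in 3 (Cd5l, C1qb and Clec4f) and the AP-1 site in 1 (Cd68). Among all 32851 promoters of the table, 23.3% held the PU box, 16.1% the MAF site and 4.46% the AP-1 site in a window of the same length. A match describes the letters only; no factor binding was measured.

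Several livers stood apart before any comparison was made. Array medians were close, from 5.53 to 5.61, and Alb, the main secretory product of hepatocytes, lay between 15.19 and 15.32 on every array. These Alb values are near 15.41, the highest of all deposited values, so they say little about differences between livers. Saa1, an acute phase gene that hepatocytes switch on in inflammation, fell into separate clusters: 15 arrays between 10.05 and 11.87 and 8 arrays between 12.64 and 14.83. The 8 high arrays came from all 4 groups: vehicle replicates 1, 4 and 5 and treated replicate 2 at 21 d, vehicle replicate 2 and treated replicates 3, 5 and 6 at 90 d. The Gapdh control probe sets read the 3' and the 5' end of one transcript, and the gap between them (the Gapdh difference), which grows as RNA or its labelled copy is shortened, also split the arrays. It was between 0.09 and 0.74 (log2) on 18 arrays and between 1.02 and 1.45 on 5, namely treated replicates 1, 3, 4 and 5 at 21 d and treated replicate 6 at 90 d. The 5 treated mice at 21 d averaged 1.00 ± 0.51 (SD) and the 6 vehicle mice 0.33 ± 0.13 (exact permutation test, 2-sided by doubling the smaller tail, p = 0.026), while at 90 d the averages were 0.53 ± 0.40 and 0.50 ± 0.15 (n = 6 each, exact permutation p = 0.909). Treated replicate 2 at 21 d was the only array of its group that combined a low Gapdh difference, 0.14, with high Saa1, 14.83, and the results at 21 d are given with and without it.

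Vsig4, a complement receptor by which Kupffer cells capture bacteria from blood, had its lowest group mean in treated mice at 21 d. In treated mice at 21 d its log2 signals were 9.08, 11.89, 9.52, 9.38 and 9.28 for replicates 1 to 5, against a lowest, median and highest value of 9.83, 10.51 and 11.28 in vehicle mice. Replicate 2 was above every other array of the study, whereas the other 4 treated arrays were all below the lowest vehicle array. At 90 d the treated mice ran from 9.61 through a median of 10.60 to 11.08 and the vehicle mice from 9.70 through 10.20 to 11.21, and these ranges overlapped almost fully.

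Clec4f, the C-type lectin receptor of mouse Kupffer cells, had log2 signals of 9.46, 11.22, 9.66, 9.93 and 9.67 in treated mice at 21 d. Vehicle mice at 21 d ran from 9.51 through a median of 10.14 to 10.87, so that the 4 treated arrays other than replicate 2 were all below the vehicle median. At 90 d treated mice ran from 9.63 through 10.30 to 10.84 and vehicle mice from 9.47 through 9.81 to 10.83.

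Cd5l, a secreted protein of tissue macrophages also called AIM, had log2 signals of 9.65, 12.56, 9.90, 10.15 and 9.89 in treated mice at 21 d and of 9.92 to 12.09, with a median of 10.72, in vehicle mice. Its 90 d signals ran from 9.84 through 11.12 to 11.98 in treated and from 9.85 through 10.27 to 11.82 in vehicle mice. At both times the groups overlapped, and in each group the spread between mice was wider than the distance between the group means.

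Marco, a scavenger receptor that binds bacteria, varied most. Its log2 signals were 6.75, 11.73, 7.04, 7.31 and 7.04 in treated mice at 21 d, and 11.12, 6.66, 6.83, 7.76, 8.94 and 6.90 in vehicle mice. Treated replicate 2 and vehicle replicate 1 at 21 d were the highest livers of the study, followed by 9.29 in a treated mouse at 90 d, and the full range over the 23 livers was 5.69 log2 units, or 51.6-fold. At 90 d treated mice ran from 6.57 through 7.42 to 9.29 and vehicle mice from 6.04 through 6.30 to 7.86. The second probe set of Marco had narrower ranges but the same high livers, with 10.14 in treated replicate 2 and 9.07 in vehicle replicate 1 at 21 d.

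Cd163, the receptor that takes up haemoglobin bound to haptoglobin, had the smallest spread within groups of the 10. Treated mice at 21 d had log2 signals of 7.34, 8.42, 7.44, 7.21 and 7.43, of which 4 were inside the vehicle range of 7.08 to 7.93 (median 7.54) and replicate 2 above it. At 90 d treated mice ran from 7.12 through 7.72 to 8.45 and vehicle mice from 6.60 through 7.005 to 8.01. Its highest value in the study was in treated replicate 6 at 90 d, and it was the only marker whose highest array was not treated replicate 2 at 21 d.

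**Figure D1:**
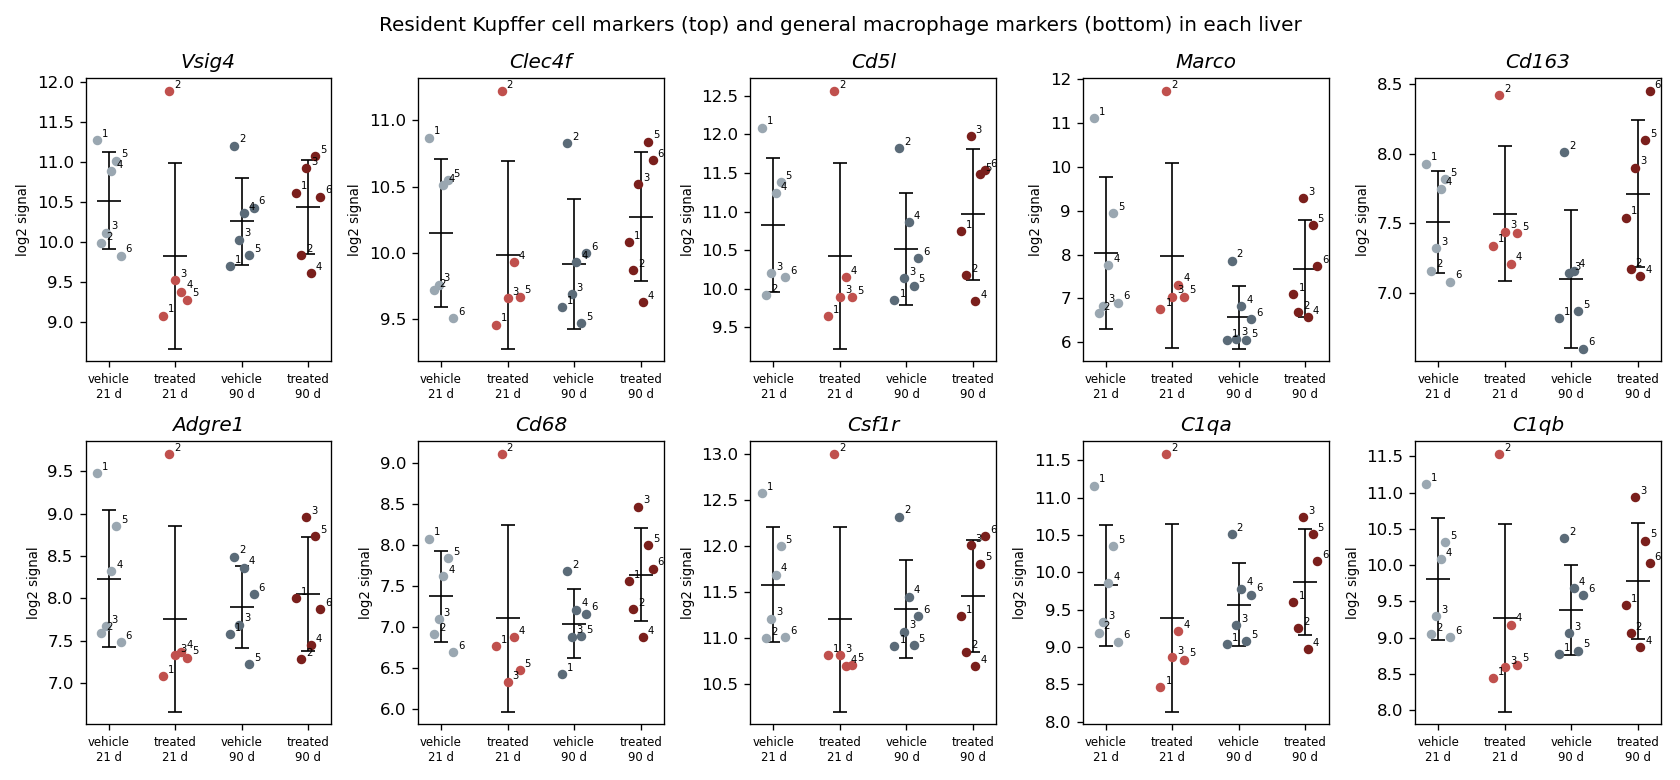
Log2 signal (vertical axis) of the 10 markers in each liver, with the 4 groups along the horizontal axis, points numbered by replicate, and group mean and SD as black bars. Treated replicate 2 at 21 d is the highest point in 9 of the 10 panels, and Marco spans 6.04 to 11.73.

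Among the general macrophage markers, Csf1r, the receptor for the survival factors CSF1 and IL-34, had log2 signals of 10.81, 13, 10.81, 10.69 and 10.71 in treated mice at 21 d. All 4 treated arrays other than replicate 2 were below the vehicle range, which ran from 11 through a median of 11.45 to 12.58. At 90 d treated mice ran from 10.69 through 11.53 to 12.11 and vehicle mice from 10.91 through 11.16 to 12.32. Adgre1, which encodes an adhesion receptor on the surface of mouse macrophages, had log2 signals of 7.08, 9.70, 7.33, 7.37 and 7.30 in treated mice at 21 d, and 4 of the 5 were again below the lowest vehicle value of 7.48. Its vehicle mice at 21 d reached 9.48 with a median of 7.995, and the 90 d ranges were 7.28 to 8.96 in treated and 7.22 to 8.49 in vehicle mice.

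Cd68, a lysosomal membrane protein of phagocytes, had log2 signals of 6.76, 9.11, 6.32, 6.87 and 6.47 in treated mice at 21 d and of 6.69 to 8.08, with a median of 7.36, in vehicle mice. At 90 d its treated mice ran from 6.87 through 7.64 to 8.47 and its vehicle mice from 6.42 through 7.03 to 7.68. C1qa and C1qb encode chains of C1q, the recognition part of the classical complement pathway that tissue macrophages secrete. C1qa had log2 signals of 8.46, 11.58, 8.86, 9.21 and 8.83 in treated mice at 21 d, against 9.07 to 11.16 in vehicle mice, and C1qb had 8.44, 11.53, 8.59, 9.18 and 8.63, against 9.01 to 11.12. At 90 d C1qa ran from 8.97 to 10.74 in treated and from 9.04 to 10.51 in vehicle mice, and C1qb from 8.87 to 10.94 and from 8.77 to 10.37. For none of the 10 markers were treated and vehicle arrays separated at either time, whereas 2.81% of all 18193 genes were at 21 d and 1.35% at 90 d.

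After 10 treatments, none of the 10 markers passed the test between treated and vehicle mice (limma over all 45037 probe sets, Benjamini-Hochberg adjusted p under 0.05), where 0.957% of all probe sets did; at an unadjusted p under 0.05 the count was also 0. The treated mean was lower for 9 markers and higher for Cd163, with a median log2 difference of -0.39 over the 10 markers and of -0.02 over all genes. The widest gap was that of Vsig4, with means of 9.83 ± 1.16 (SD) in the 5 treated and 10.52 ± 0.61 (SD) in the 6 vehicle mice. Its log2 difference was -0.69 with a 95% confidence interval of -1.53 to 0.15 (limma, adjusted p = 0.437). C1qb followed with -0.54 (interval -1.55 to 0.47, limma adjusted p = 0.657) and Adgre1 with -0.48 (-1.36 to 0.40, limma adjusted p = 0.651). Marco, at -0.06, had an interval of -1.73 to 1.61, so that its direction was not determined at this spread. The median was -0.17 over the 5 resident markers and -0.44 over the 5 general ones, and this difference between the lists was not tested. Without treated replicate 2 these medians were -0.93 and -0.96.

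The 21 d values depended on single livers and on the Gapdh difference. Without vehicle replicate 1, a liver with high markers, the median log2 difference over the 10 markers was -0.16 with 2 markers higher in treated mice, and without treated replicate 1 it was -0.205, again with 2 higher. Without treated replicate 2, all 10 markers had a lower mean in treated mice, with a median log2 difference of -0.95. Vsig4 then passed the test at -1.21 ± 0.31 (SE, limma adjusted p = 0.0284), in a fit where 5.03% of all probe sets passed. The other 9 did not, with differences from -1.10 for C1qb to -0.16 for Cd163 and limma adjusted p from 0.116 to 0.799. The 4 treated arrays that remain are the same ones with a Gapdh difference above 0.9. With the Gapdh difference as a covariate in the fit of all arrays, the sign turned: all 10 markers had a higher adjusted mean in treated mice at 21 d, with a median of 0.52, the largest for Marco at 1.62, and none passed (limma adjusted p from 0.652 to 0.930). Within treated mice at 21 d, replicate 2 had a Gapdh difference of 0.14 and the others 1.02 to 1.45. The Gapdh slope of this fit thus rested in part on replicate 2, and no covariate fit without that liver was run. Leaving out the 5 arrays with a difference above 0.9 leaves treated replicate 2, the highest liver for 9 markers, alone in its group, so that the log2 differences of 0.91 to 3.70 describe that liver. The direction of the macrophage markers at 21 d thus differed between the fits with and without the Gapdh covariate.

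After 40 treatments, no marker passed either (0.502% of all probe sets did), and at an unadjusted p under 0.05 there was 1, Cd163. All 10 markers had a higher mean in treated mice, with a median log2 difference of 0.38 against 0.02 over all genes. Without treated replicate 3 this median was 0.205 with 9 markers higher, and without vehicle replicate 2 it was 0.57 with all 10 higher. The resident markers had a median of 0.45 and the general ones of 0.30. Cd163 was 7.71 ± 0.53 in treated and 7.10 ± 0.49 in vehicle mice (SD, n = 6 each), a log2 difference of 0.61 with an interval of 0.10 to 1.13 (limma, adjusted p = 0.374). Marco had the largest difference, 1.11, with an interval of -0.48 to 2.70 (limma adjusted p = 0.667). Cd68 followed at 0.60 (-0.15 to 1.35, limma adjusted p = 0.614), and the smallest were Adgre1 at 0.15 and Csf1r at 0.13. With the Gapdh covariate all 10 stayed higher, with a median of 0.41 and none passing. Without treated replicate 3 the Adgre1 difference was -0.03, and under array weights that of Csf1r was -0.02.

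**Figure D2:**
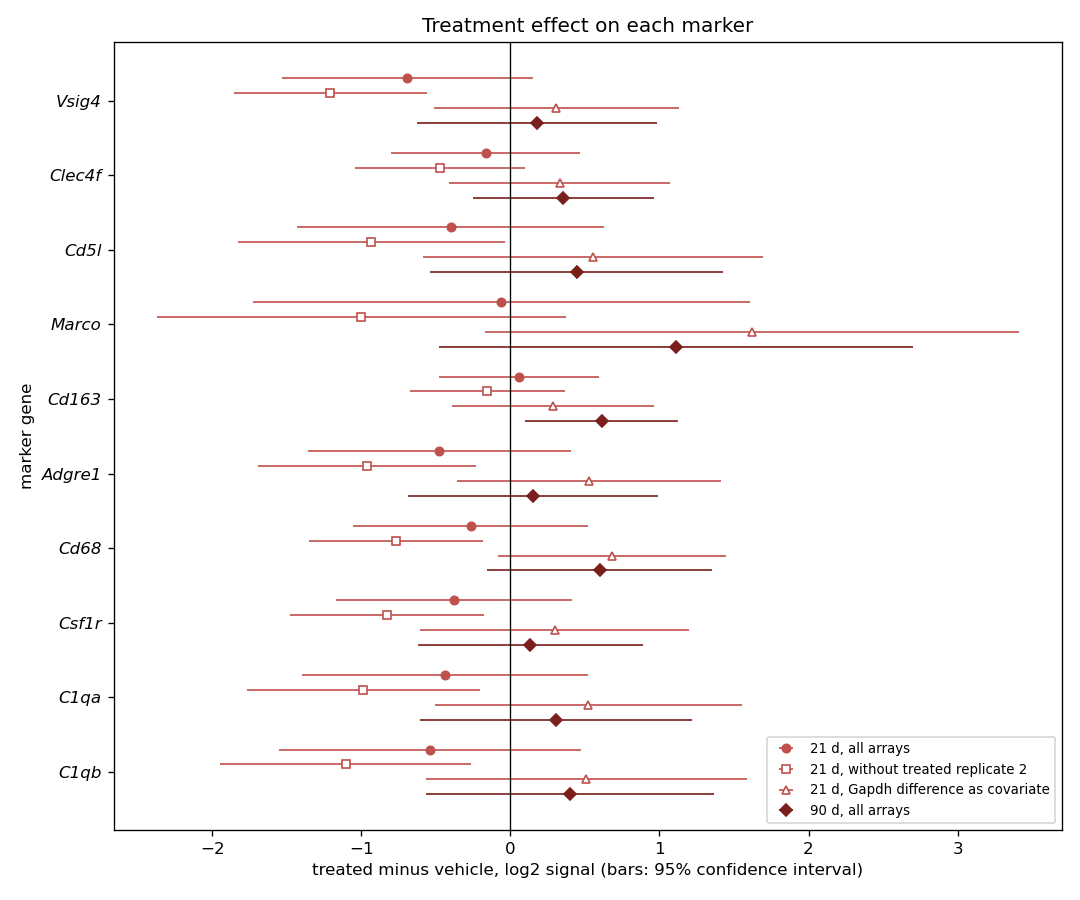
Treated minus vehicle log2 signal (horizontal axis) of each marker (vertical axis) with 95% confidence intervals, at 21 d under 3 settings and at 90 d with all arrays. At 21 d the points lie mostly left of 0 with all arrays (median -0.39), further left without treated replicate 2 (median -0.95) and right of 0 with the Gapdh covariate (median 0.52), while the 90 d points lie right of 0 (median 0.38).

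The treatment effect at 90 d minus that at 21 d was positive for all 10 markers, with a median log2 difference of 0.79 and a range from 0.51 for Csf1r to 1.17 for Marco. None passed the test of this difference (limma adjusted p from 0.599 to 0.762), nor did any of all probe sets (0%), and no marker had an unadjusted p under 0.05. Without treated replicate 2 at 21 d the median was 1.33, and all 10 markers had an unadjusted p under 0.05 but none passed (lowest limma adjusted p = 0.101), where 0.118% of all probe sets did. That liver was the highest for 9 markers, so leaving it out had to lower their treated means and spread. All treated arrays left at 21 d have a Gapdh difference above 0.9. The markers moved together, so these 10 are not separate results. Without vehicle replicate 1 at 21 d the median was 0.51, with all 10 positive and none at an unadjusted p under 0.05. With the Gapdh covariate the difference was negative for 8 of the 10. In vehicle mice alone, the 90 d mean was lower than the 21 d mean for all 10 markers, with a median of -0.32 and the widest gap in Marco, 6.56 ± 0.71 against 8.04 ± 1.73 (SD, n = 6 each; log2 difference -1.47, interval -3.06 to 0.12, limma adjusted p = 0.855). None passed (0.00666% of all probe sets did), and none had an unadjusted p under 0.05. Without vehicle replicate 1 at 21 d the median was -0.10 with 1 marker higher, and the Marco difference was -0.85. The median was -0.10 with the Gapdh covariate, and between -0.21 and -0.19 without vehicle replicate 5 at 21 d or vehicle replicate 1 or 5 at 90 d. Vehicle mice at 21 d enter this comparison and the treated one at 21 d, so the directions of these comparisons are not independent. By group mean, vehicle mice at 21 d were highest for 5 markers and treated mice at 90 d for the other 5, while treated mice at 21 d were lowest for 6 and vehicle mice at 90 d for 4. None of the 3 comparisons of groups gave a marker that passed with all arrays.

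The additional probe sets gave no call either, but those of C1qb and Marco had smaller 90 d differences than the representative ones. The other 2 of Csf1r differed by -0.29 and -0.21 (log2) at 21 d and by 0.21 and 0.18 at 90 d. The other 2 of C1qb differed by -0.27 and -0.20 at 21 d and by 0.06 and 0.02 at 90 d, against 0.40 at 90 d for the representative one. The further Marco probe set differed by -0.07 at 21 d and 0.28 at 90 d, less than the 1.11 of the representative one. None passed the test in limma, and all had the sign of their gene's representative probe set at both times.

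The markers varied widely between mice of one group, and they did so together. After removal of group means, the SD of the markers was from 0.47 for Cd163 to 1.48 for Marco (log2), and 97.5% to 99.9% of the 18193 genes had a smaller one. Treated replicate 2 at 21 d ranked first among the 23 livers for 9 markers and within the top 2 for all 10. Vehicle replicate 1 at 21 d was within the top 5 for all 10, and vehicle replicates 4 and 5 at 21 d, vehicle replicate 2 at 90 d and treated replicates 3 and 5 at 90 d were within the top 8 for all 10. Treated replicate 6 at 90 d was within the top 8 for 8 markers although its Gapdh difference was 1.24. High-marker livers thus occurred among treated and vehicle mice at both times.

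Pearson's r between markers over the 23 arrays, after removal of group means, ran from 0.76 (Cd163 with Adgre1) to 0.99 (C1qa with C1qb) over 45 pairs, with a median of 0.95. Among pairs without Cd163 the lowest r was 0.898 (Clec4f with Marco). Without the 2 arrays farthest from the median, treated replicate 2 and vehicle replicate 1 at 21 d, the range was 0.67 to 0.99 and the median 0.92. The group means removed still included these 2 arrays, so the other treated arrays at 21 d kept a shared shift. These values are therefore not free of the 2 arrays. The same holds for the list and gene r values below that leave them out. The mean of the 5 resident markers and that of the 5 general ones had an r of 0.99 (0.98 without those 2 arrays), so the lists did not come apart in these livers. These values describe 23 arrays that share a platform and a normalization.

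The livers with high markers were those with high Saa1. All 8 livers of the high Saa1 cluster were above all 15 others for 8 of the 10 markers, and 7 of the 8 were among the 8 highest for Vsig4 and Adgre1. Because Saa1 was clustered, relations were computed within the clusters, 30 with those for the Gapdh control. Among the 15 lower arrays Pearson's r with Saa1 ran from -0.12 for Cd68 to 0.60 for Marco, and none passed after Benjamini-Hochberg adjustment (permutation test, lowest adjusted p = 0.0505); Spearman's rho passed for Marco alone, at 0.62 (permutation test, adjusted p = 0.0407). Among the 8 higher arrays r ran from 0.32 to 0.77 (exact permutation test, lowest adjusted p = 0.0595), and rho passed for Cd5l alone, at 0.88 (exact permutation test, adjusted p = 0.0217). Without the 2 arrays farthest from the median Saa1, r ran from -0.12 to 0.60 in the lower and from 0.05 to 0.84 in the higher cluster. Within either cluster, Pearson's r with Saa1 thus passed for no marker.

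Within the 18 arrays with a low Gapdh difference, every marker was lower where that difference was higher. Pearson's r ran from -0.69 for Cd68 to -0.57 for Cd163 and Spearman's rho from -0.74 for Marco to -0.56 for Cd163. All 10 passed for r (permutation test, adjusted p from 0.0246 to 0.0461) and for rho (adjusted p from 0.0107 to 0.0452). Without the 2 arrays farthest from the median r ran from -0.67 to -0.50, and without treated replicate 2 at 21 d from -0.64 to -0.48. These 18 arrays come from all 4 groups, with 1 treated array at 21 d, and group means were not removed for these relations. They also hold livers of both Saa1 clusters. Those with high Saa1 had Gapdh differences from 0.09 to 0.48, and the others from 0.14 to 0.74. The relation with the Gapdh difference thus cannot be told apart from the Saa1 clusters or the groups. The remaining 5 arrays are too few for a value. The part of RNA shortening in the marker levels was not tested.

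**Figure D3:**
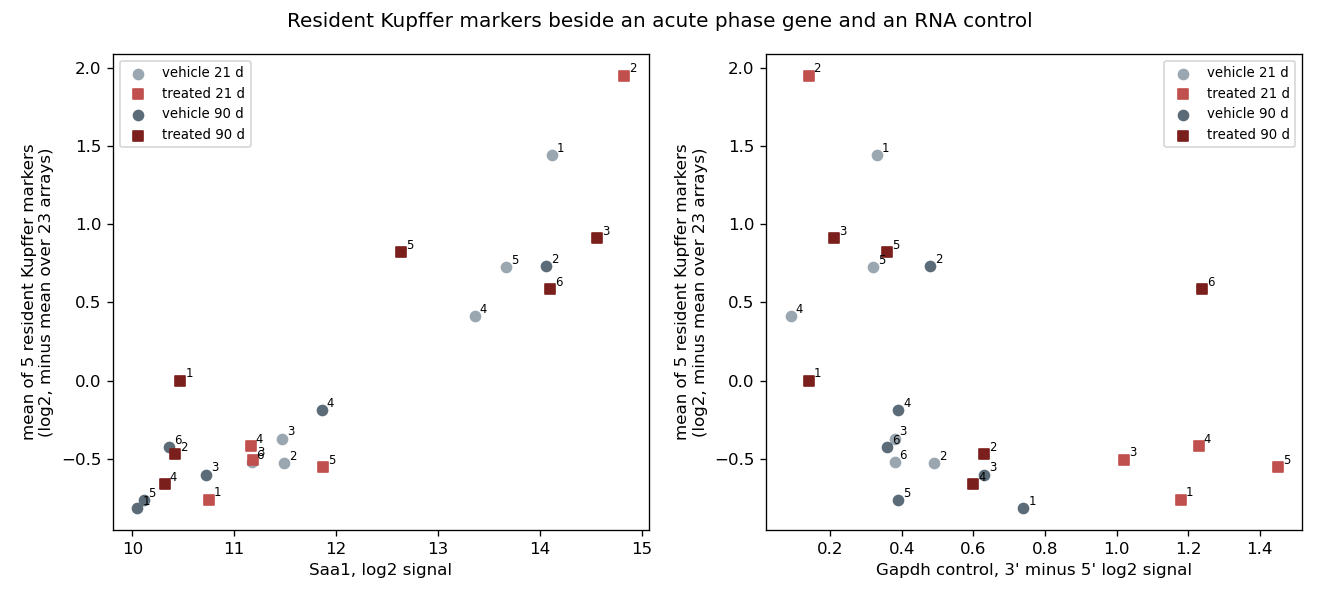
Mean of the 5 resident markers in each liver (vertical axis, log2 minus the mean over 23 arrays) against Saa1 (left, log2 signal) and the Gapdh difference, 3' minus 5' (right, log2), coloured by group and numbered by replicate. The 8 livers with Saa1 at 12.64 or above lie highest on the left, and treated replicate 2 at 21 d reaches 1.95.

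Other macrophage genes, drawn from 17 lists of cell types and pathways, were counted in the same fits. Of the 12 other Kupffer identity genes, 1 passed at 21 d and none at 90 d. It was Slc40a1, the iron exporter ferroportin through which macrophages return iron from red cells, with means of 12.71 ± 0.19 (SD) in the 5 treated and 13.11 ± 0.07 (SD) in the 6 vehicle mice. Its log2 signal was lower in treated mice (log2 difference -0.40, SE 0.087, limma adjusted p = 0.0304), which was also the single call among the 9 measured genes of haem and iron recycling. The call was lost in 4 of the alternative fits, among them those with the Gapdh covariate (-0.38, limma adjusted p = 0.224) and the replicate block. Without the arrays above 0.9 the difference was -0.09. The call was also lost when any of 8 single arrays was left out (limma adjusted p up to 0.0838). These were treated replicates 1, 3, 4 and 5 and vehicle replicates 2, 3, 5 and 6 at 21 d. Without treated replicate 2 the Slc40a1 difference was -0.48 (limma adjusted p = 0.00434).

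Of 16 measured other general macrophage genes, none passed at either time; 14 were lower at 21 d (median -0.29) and 15 higher at 90 d (median 0.32). Without treated replicate 2 at 21 d, all 16 were lower at 21 d (median -0.77) and 1, Lgmn, passed. The largest differences were 0.61 at 90 d for Cd14, a co-receptor for bacterial lipopolysaccharide (limma adjusted p = 0.653), and -0.59 at 21 d for Ctss, the lysosomal protease cathepsin S (limma adjusted p = 0.589). The Ctss value was 0.40 with the Gapdh covariate. None of 11 monocyte and infiltrating macrophage genes passed; Plac8 differed by 0.52 and S100a4 by 0.38 at 90 d (limma adjusted p = 0.593 for both). Among 8 lipid- and scar-associated macrophage genes none passed, but Mmp12, macrophage elastase, differed at 90 d by 1.07 (5.11 ± 0.82 against 4.04 ± 0.26, SD, n = 6 each; limma adjusted p = 0.0759). Mmp12 passed under array weights and without treated replicate 2 at 21 d or treated replicate 6 at 90 d. Without the arrays above 0.9 in the Gapdh difference, its difference at 90 d was 1.25. Both of its 90 d means were below the array medians of 5.53 to 5.61. The 90 d means of S100a4, 5.19 in treated and 4.81 in vehicle mice, were also below them. Mmp12 did not enter the fit of probe sets with a mean of at least 6. Between them, Mmp12 and Cldn7 (below) also passed at 90 d under further alternative fits that are not listed here. Lgals3, the lectin galectin-3, differed by 0.78 at 90 d (limma adjusted p = 0.426).

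Without treated replicate 2 at 21 d, 5 of the 167 measured list genes other than the markers passed at 21 d (2.99%) and 3 at 90 d (1.8%). Counted likewise with 1 probe set per gene, 513 of all 18193 genes passed as higher and 482 as lower at 21 d. At 90 d these counts were 174 and 61. Over all probe sets, those without a gene included, the shares were 5.03% and 0.835%. Of the list genes that passed, Lgmn, Cx3cr1, Fgg and Il6, and Mmp12 at 21 d, fall outside the rule for naming. They were picked after their values were seen. At 21 d Mmp12 was then higher in treated mice by 1.07 (limma adjusted p = 0.0243) and Cx3cr1, the fractalkine receptor of monocytes, by 0.40 (limma adjusted p = 0.0391), whereas Lgmn, a lysosomal protease of macrophages, was lower (-0.69, limma adjusted p = 0.0210) and so was Fgg of the acute phase list (-0.21, limma adjusted p = 0.0431). At 90 d the calls were Mmp12, Cldn7 and Il6, the cytokine interleukin-6 (0.23, limma adjusted p = 0.0438).

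For Csf1r, the 11 measured ligand and signalling genes had no call; Cebpb, a transcription factor of myeloid cells, differed by 0.43 at 90 d (limma adjusted p = 0.258), and Fli1 by -0.39 at 21 d (limma adjusted p = 0.365). For C1q, none of 5 partners passed; C1qc, the remaining C1q chain, differed by 0.33 at 90 d (limma adjusted p = 0.858) and C2 by 0.13 at 21 d (limma adjusted p = 0.720). Among 16 cytokine and chemokine genes none passed; 12 were lower at 21 d (15 without treated replicate 2) and 13 higher at 90 d. The interferon-inducible chemokines Cxcl9 and Cxcl10 differed by -0.83 and -0.51 at 21 d (limma adjusted p = 0.571 and 0.680) and had positive values, 0.31 and 0.37, with the Gapdh covariate.

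Markers of other cells were read beside the macrophage markers, as means of a list relative to the mean over 23 arrays. The neutrophil list followed them, with an r of 0.95 with the mean of the resident markers, and 6 of its 8 measured genes were highest in treated replicate 2 at 21 d. Its list mean ran from -0.44 to 1.53 in treated and from -0.49 to 0.48 in vehicle mice at 21 d, and from -0.50 to 0.73 and -0.39 to 0.45 at 90 d. S100a9 and S100a8 had the largest differences of that list, 0.89 and 0.88 at 90 d, and did not pass (limma adjusted p = 0.758 and 0.786). The acute phase list likewise had an r of 0.95 and 8 of 12 genes highest in that liver. Its list mean ran from -0.69 to 1.97 in treated and from -0.48 to 1.18 in vehicle mice at 21 d, and from -0.69 to 1.44 and -0.83 to 1.02 at 90 d. Lcn2, an iron-binding protein made in inflammation, differed by 1.97 at 90 d with a spread of 2.25 among treated mice (SD, n = 6; limma adjusted p = 0.613), and Saa2 by 1.21 (limma adjusted p = 0.755). The part of neutrophils and of the acute phase response in the marker levels was not tested.

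The monocyte list had an r of 0.91 with the resident markers and the T and NK cell list one of 0.89. Lower values were found for B and plasma cells (0.60), sinusoidal endothelium (0.51), dendritic cells (0.37), cholangiocytes (0.17), hepatocytes (-0.10) and stellate cells (-0.19). Without the same 2 arrays, but with group means taken over all arrays, these became 0.81, 0.79, 0.47, 0.39, 0.16, -0.08, -0.05 and -0.27. The hepatocyte list mean stayed between -0.10 and 0.17 over all livers, while the resident marker mean ran from -0.82 to 1.95. None of these lists had a gene that passed at either time. Their largest differences were Cd3d (0.34) at 90 d and Nkg7 (-0.35) at 21 d for T and NK cells; Jchain (-0.32) and Ms4a1 (-0.15) at 21 d for B cells; and Itgax (0.32) at 90 d and Ccr7 (-0.20) at 21 d for dendritic cells. In the lists of the liver's own tissue cells they were Pecam1 (-0.33) and Fcgr2b (-0.20) at 21 d, Acta2 (-0.40) and Lrat (0.34) at 21 d, Cldn7 (0.48) and Krt7 (0.38) at 90 d, and Ass1 (0.48) at 21 d and Pck1 (-0.19) at 90 d. Cldn7, a tight junction protein of bile duct epithelium, was nearest to a call (limma adjusted p = 0.0594), and it passed with the Gapdh covariate (limma adjusted p = 0.0273). Its 90 d means, 5.38 in treated and 4.90 in vehicle mice, were below the array medians. Those of Krt7, 4.985 and 4.61, were also below them. The 21 d means of Nkg7 (5.12 in treated, 5.47 in vehicle mice), Ms4a1 (4.70, 4.86) and Ccr7 (4.85, 5.045) were below them too. Itgax at 90 d (5.59 in treated, 5.27 in vehicle mice) and Pecam1 at 21 d (5.31, 5.64) were near or below them.

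**Figure D4:**
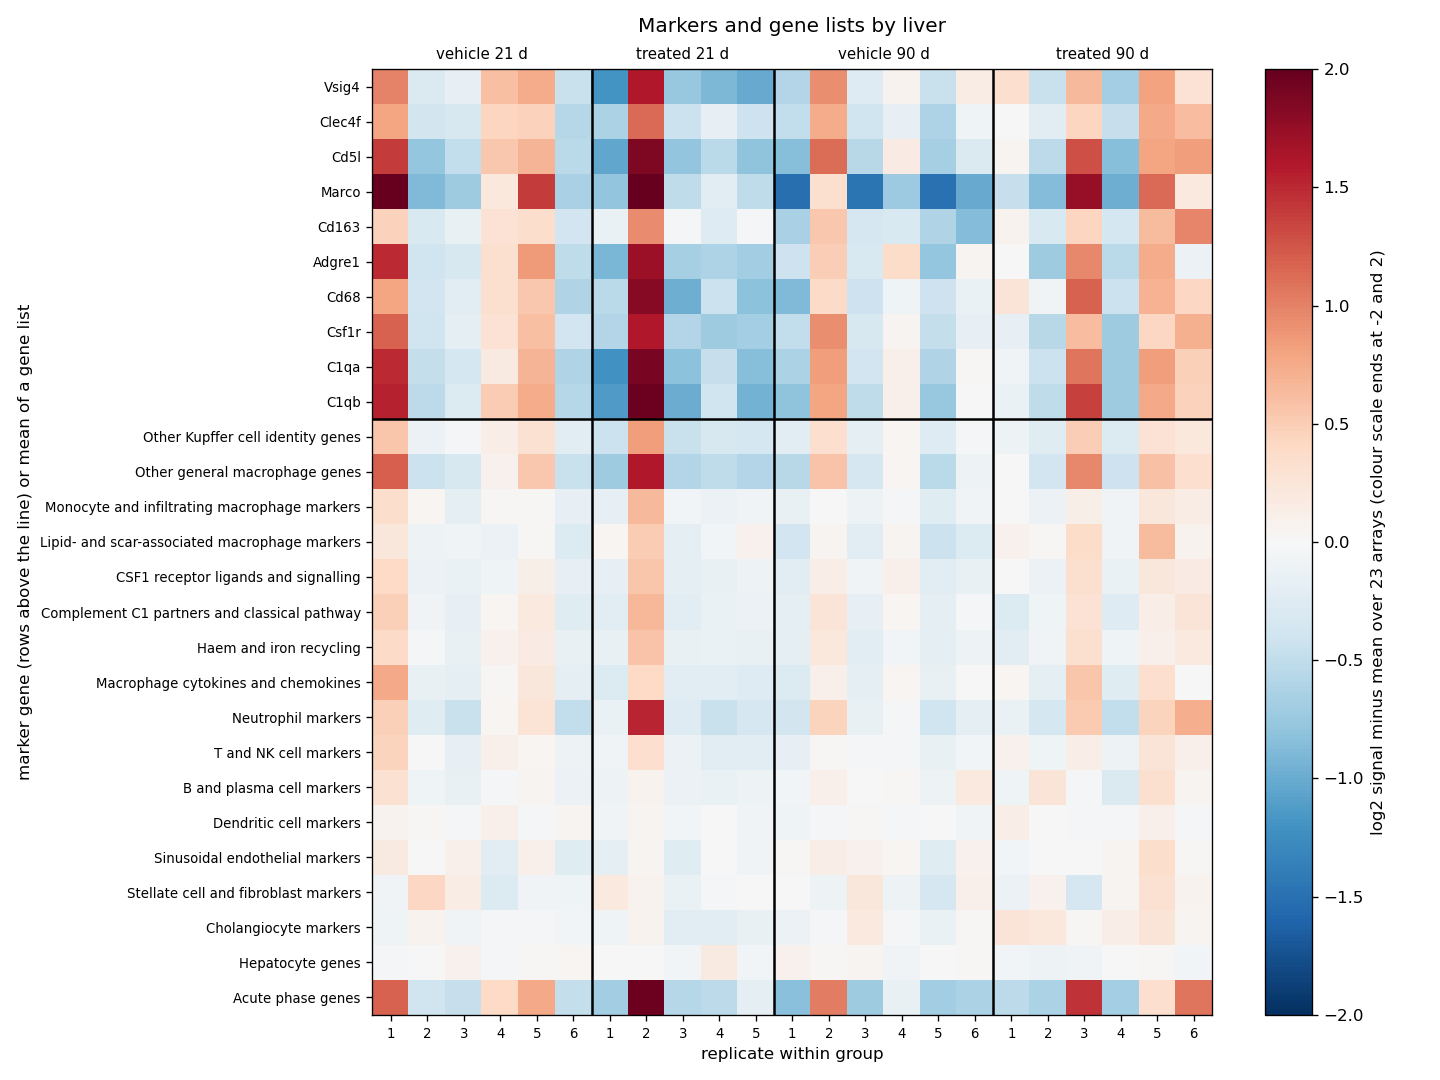
Log2 signal of the 10 markers (rows above the line) and mean of each gene list (rows below), each minus its mean over 23 arrays, for every liver (columns, numbered by replicate within the 4 groups). Many of the same columns are red in the marker, neutrophil and acute phase rows, but the neutrophil row is at 0.03 for vehicle replicate 4 at 21 d. The hepatocyte row stays between -0.10 and 0.17.

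The genes whose profile over the 23 arrays was most like the resident markers, among 10834 genes with a mean of at least 6 and after removal of group means, were H2-Ab1, Cd74, H2-Aa, C1qc, Cd44 and Cybb. Their r was 0.99 each, against a median of -0.02 over those genes, and 156 genes had an r above 0.9. Without the same 2 arrays, but with group means taken over all arrays, their r was 0.97 to 0.98. H2-Ab1, Cd74 and H2-Aa encode parts of the antigen-presenting MHC class II complex and its chaperone, and Cybb a subunit of the phagocyte NADPH oxidase. For the general markers they were C1qc, Tyrobp, Timd4, H2-Aa, Fcgr3 and H2-Ab1, also with an r of 0.99, and 169 genes were above 0.9. Tyrobp is a signalling adaptor of myeloid receptors, Fcgr3 an antibody receptor, and Timd4 a receptor for dying cells found on long-lived Kupffer cells. All 9 genes had their highest signal in treated replicate 2 at 21 d; that of H2-Aa was 12.92, against a lowest value of 8.61. None of them passed in either treatment comparison (limma), with H2-Aa at -0.997 at 21 d (adjusted p = 0.520) and Tyrobp at 0.52 at 90 d (adjusted p = 0.739).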

How the data were processed

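Liver RNA of 23 mice was measured on Affymetrix 430 2.0 arrays, each from a separate animal. The authors deposited log2 values with 2 decimals, from 2.23 to 15.41. The submitters' processing notes name Partek and RMA, without version or settings. No label states the base of the logarithm, which was inferred from RMA and the range. RMA brings arrays to a common distribution, which hides any change shared by all genes. Signals were not set against background, and precision is limited by the number of arrays.

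Of 45101 probe sets, 64 controls were left out. The annotation gave 34945 probe sets 1 gene, 932 several and 9160 none; a gene was represented by its probe set with the highest mean. Group means were fitted to all 23 arrays with limma 3.58.1 in R 4.3.3 (19 residual degrees of freedom), with Benjamini-Hochberg adjustment over 45037 probe sets and a call at an adjusted p under 0.05. The fits were tested on simulated data with independent noise for each probe set. The simulation held no outlying liver, no genes that move together and no Gapdh difference. It therefore does not bear on how the 21 d results depend on these. Single values were compared by exact permutation (scipy 1.17.1), and relations within clusters, split at the widest gap, by 100000 permutations, or by all 40320 where 8 arrays entered; the use of clusters was decided with the values in view. The markers and lists were chosen with earlier results of these data known. Every marker is named; from each further list, up to 3 passing genes with the largest change are named or, where none passed, the 2 with the largest change at 21 d or 90 d, as are the 6 genes most like each marker mean. Alternatives were a Gapdh covariate, no arrays above 0.9 in the Gapdh difference, the mean of a gene's probe sets, a mean of at least 6, arrays of the same time or of vehicle mice only, array weights, a further quantile normalization, a replicate block, trend and robust variance, and leaving out each array. No label calls same-numbered treated and vehicle arrays pairs, and the main fit did not take them as pairs. Their deviations were correlated at -0.36 to -0.14, all negative, and the reason was not tested. The fit with the replicate number as a block is given below.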

Additional observations from a re-analysis of the deposited data

Results flagged for a closer look

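Treated replicate 2 at 21 d lay apart from the other 4 treated mice of its time in all 10 markers. The gap to the next array, divided by the range of the 5, was 0.948 for Csf1r, 0.889 for Adgre1, 0.888 for Marco, 0.843 for Vsig4, 0.828 for Cd5l, 0.810 for Cd163, 0.803 for Cd68, 0.761 for C1qb, 0.760 for C1qa and 0.733 for Clec4f, above the critical value of 0.71 for 5 samples. Saa1 stood apart in the same liver, at 0.725, with 14.83 against 11.87 in the next array. Of 52 gene and group combinations tested, 11 passed this limit, all for this liver at its high end; chance gives about 1 in 20, and the markers are not independent of each other. The cause was not tested.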

How the results depend on the processing

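Of the marker counts, only that at 21 d changed, from 0 to 1 without treated replicate 2; it was between 0 and 1 over the 23 arrays left out in turn. The replicate block changed no count of markers called and no sign (median difference -0.40 at 21 d and 0.38 at 90 d), but it moved the calls over all probe sets at 21 d from 431 to 91 and lost Slc40a1 (-0.39, adjusted p = 0.0644). Counts over all probe sets at 21 d ran from 91 under the replicate block to 2265 without treated replicate 2 of that time, and at 90 d from 114 without vehicle replicate 5 of that time to 761 without the arrays over 0.9 in the Gapdh difference.

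With the Gapdh covariate, the 21 d differences became 0.31 for Vsig4, 0.33 for Clec4f, 0.55 for Cd5l, 1.62 for Marco, 0.53 for Adgre1, 0.68 for Cd68, 0.30 for Csf1r, 0.52 for C1qa, 0.51 for C1qb, 0.40 for Ctss, 0.31 for Cxcl9, 0.37 for Cxcl10 and 0.055 for Nkg7. The difference of effects became -0.081 for Vsig4, -0.063 for Cd5l, -0.43 for Marco, -0.33 for Adgre1, -0.039 for Cd68, -0.13 for Csf1r, -0.17 for C1qa and -0.060 for C1qb. Without the arrays above 0.9 in the Gapdh difference, where the spread of the lone treated array at 21 d is taken from the remaining groups, the 21 d differences were 1.37 for Vsig4, 1.07 for Clec4f, 1.73 for Cd5l, 3.70 for Marco, 1.47 for Adgre1, 1.74 for Cd68, 1.42 for Csf1r, 1.76 for C1qa, 1.72 for C1qb, 1.36 for Ctss, 0.0017 for Fli1, 1.25 for Cxcl9, 0.31 for Cxcl10, 0.58 for Nkg7, 0.43 for Jchain, 0.02 for Pecam1 and 0.04 for Acta2. The difference of effects was then -1.21 for Vsig4, -0.80 for Clec4f, -1.40 for Cd5l, -2.60 for Marco, -0.44 for Cd163, -1.28 for Adgre1, -1.15 for Cd68, -1.42 for Csf1r, -1.51 for C1qa and -1.37 for C1qb. Array weights gave -0.023 for Cd163 at 21 d and -0.016 for Csf1r at 90 d. The cause of these changes was not tested.

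Over single arrays left out, the 21 d difference ran from -1 to 0.56 for Marco, with a positive value without treated replicate 1, 3, 4 or 5 or vehicle replicate 1 or 5, and from -0.16 to 0.15 for Cd163, negative without treated replicate 2 or vehicle replicate 2 or 6. It ran from -1.21 to -0.50 for Vsig4. Adgre1 at 90 d ran from -0.032 to 0.30, negative without treated replicate 3, and C1qa between the vehicle groups from -0.45 to 0.0087, positive without vehicle replicate 1 at 21 d. The Gapdh difference ran from 0.56 to 0.89 at 21 d (exact permutation p from 0.00952 to 0.0571, the latter without treated replicate 1, 3, 4 or 5) and from -0.11 to 0.11 at 90 d, negative without treated replicate 6. Krt7 at 90 d passed without vehicle replicate 3 of that time (0.47, limma adjusted p = 0.0253), and Cldn7 without treated replicate 3 (0.56, limma adjusted p = 0.0136) or 6 of that time or treated replicate 2 at 21 d.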
